A study of Mus musculus with 8 samples.

Results

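The genes described here are 9 mouse genes of nuclear LIM proteins and their cofactors: the LIM-only genes Lmo1, Lmo2, Lmo3 and Lmo4, the LIM-binding cofactor genes Ldb1 and Ldb2, and the LIM-homeobox genes Lhx2, Lhx5 and Lhx9. They were chosen by symbol, as genes whose proteins share partners with the LIM-homeodomain factor Isl1, and all 9 were among the 16913 genes of the authors' deposited table. The RNA came from the dissected lateral ganglionic eminence (LGE), the embryonic zone that gives rise to striatal projection neurons. It was taken at embryonic day 14.5 from embryos of mixed C57BL/6J and CD1 stock. The 4 control samples were littermates of genotype Dlx5/6-Cre;Meis2F/+, with 1 floxed Meis2 allele, and the 4 Meis2-CKO samples were Dlx5/6-Cre;Meis2F/F, with 2 floxed alleles. Both groups thus carried the Cre driver, and the control was not a wild type. The Dlx5/6 driver acts in Dlx-expressing cells, so cells of the dissected tissue outside that lineage keep Meis2. The targeted homeodomain gene, Meis2, fell: the authors' deposited table gives means of 204 (control) and 140 (Meis2-CKO), a log2 fold change of -0.53 and an adjusted p of 0.00195.

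LIM domains are zinc-binding modules that bind proteins, not DNA. LDB proteins dimerise and hold LIM-homeodomain factors together on DNA, and SSBP proteins stabilise the LDB proteins. LMO proteins have LIM domains but no homeodomain, so they can occupy LDB in place of a LIM-homeodomain factor or link LDB to other DNA-binding proteins. Isl1 is the LIM-homeodomain factor of direct-pathway striatal neurons, Lhx6 and Lhx8 are those of the medial ganglionic eminence, and Lhx2 is best known from forebrain progenitors.

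No member passed the threshold, an adjusted p under 0.05 in the authors' deposited table, where 0.78% of all genes tested were called (0.544% as lower and 0.237% as higher in Meis2-CKO). With 9 genes, 0 calls is near that background. The log2 fold changes, Meis2-CKO over control, ran from -0.58 (Ldb2) to 0.23 (Lmo1), 6 below 0 and 3 above, with a median of -0.27 beside 0.01 over all genes. By the unadjusted p of the authors' deposited table, 1 member (Lmo4) lay under 0.05, as did 2.17% of all genes. The median of the 9 rested partly on Lhx5 and Lhx9, which were barely detected. Over the 7 members that reached a mean of 5 it was -0.08.

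**Figure D1:**
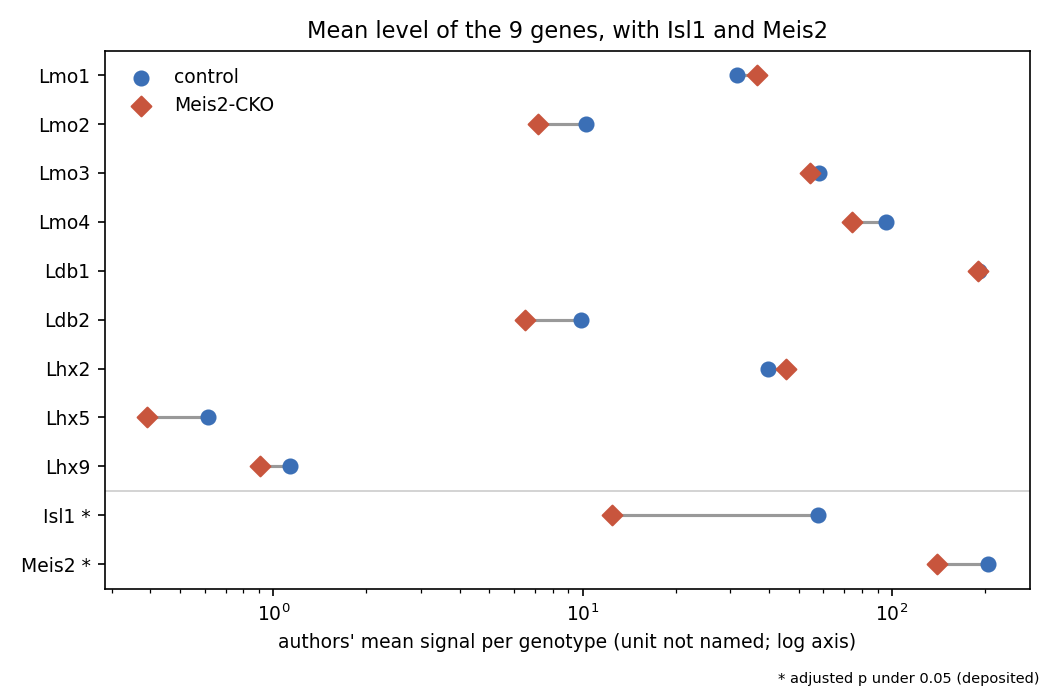
Mean signal of the 9 genes, and of Isl1 and Meis2, in control (circles) and Meis2-CKO (diamonds); each point is the authors' mean over the samples of a genotype, on a log axis, with no error computed. The members keep the same order in both genotypes, from Ldb1 (191) to Lhx5 (0.613 in control), and the gap between genotypes is wide for Isl1 (57.9 and 12.5).

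The values are the authors' means per genotype. Their unit is not named, the sequencing depth is unknown, and they are single means whose spread between embryos was not analysed here. A member that missed the threshold is therefore not shown to be unchanged. Comparing levels between genes assumes a length-scaled signal. When protein-coding genes were split by exon length into 5 equal bins, the bin medians of the control signal went from 9.18 to 14.2. On that signal scale Ldb1 stood highest in control, followed by Lmo4, Lmo3, Lhx2, Lmo1, Lmo2, Ldb2, Lhx9 and Lhx5, and the order was the same in Meis2-CKO. Without an analysed spread, neighbours in that order, such as Lmo2 and Ldb2, cannot be called different.

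All 12 genes chosen to mark LGE identity were listed. The log2 fold change was below 0 for 8 of them, and 5 fell: Meis2, Isl1, Foxp1 (40.2 in control, 16.1 in Meis2-CKO), Bcl11b (74.1 and 48.2) and Ebf1 (21.3 and 3.75), by the authors' deposited table. Over all genes 0.544% were called lower. The list includes the targeted gene and was chosen with earlier results of these data known, so its calls are no independent result. Dlx1 (393 and 496) and Dlx2 (137 and 171), which mark the eminence more broadly, were not called. Their deposited unadjusted p was 0.00391 and 0.0300. By that p, 10 of the 12 genes lay under 0.05, beside 2.17% of all genes. Of the other uncalled genes of the list, Dlx5 (72.3 and 92.1) and Gsx2 (20.9 and 24.2) also had higher means in Meis2-CKO. Dlx6 (39.8 and 29.9), Gad2 (90.3 and 75.4) and Gad1 (66.4 and 65.0) had lower ones, by the authors' deposited table. Pallial markers were also present. The summed signal of 9 such genes was 178 in control and 197 in Meis2-CKO, and Neurod6 (66.0 and 71.9), Neurod2 (36.7 and 40.2) and Tbr1 (35.6 and 37.9) stood highest among them in the authors' deposited table. The labels give no sex, and the authors' deposited table has Xist at 78.0 and 256 and the Y-linked Ddx3y at 14.1 and 4.03. By the adjusted p of the authors' deposited table, Ddx3y was called (0.000279) and Xist was not (0.985). The Y-linked genes Eif2s3y (50.5 and 14.0) and Kdm5d (13.05 and 4.09) were also called lower in the authors' deposited table. The Y-linked Uty (6.6 and 2.36) was not called. Each of these Y-linked genes, like Ddx3y, had its lower mean in Meis2-CKO, while Xist had its higher mean there. The part of pallial cells and of sex in the values below was not tested. In such bulk tissue, fewer cells of a type and less RNA per cell cannot be told apart.

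The LMO genes encode small proteins made of little more than a pair of LIM domains. Their coding sequences in GENCODE M21 are 471 nt (Lmo1 and Lmo3), 477 nt (Lmo2) and 498 nt (Lmo4). Lmo1 and Lmo3 are the closest pair, identical at 359 of 471 aligned coding bases (76.2%), and the other LMO pairs were between 56.6% and 62.7% identical. A stretch of 90 coding bases in the first LIM domain, 5′ to 3′, is shown because it holds the longest run that Lmo1 and Lmo3 share. Capitals mark bases that differ from Lmo1.
Lmo1, coding bases 91 to 180: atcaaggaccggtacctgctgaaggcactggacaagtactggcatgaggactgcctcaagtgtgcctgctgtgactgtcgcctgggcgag
Lmo3, coding bases 91 to 180: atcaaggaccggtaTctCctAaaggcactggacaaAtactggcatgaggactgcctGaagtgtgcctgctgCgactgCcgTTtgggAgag
Lmo2, coding bases 109 to 198: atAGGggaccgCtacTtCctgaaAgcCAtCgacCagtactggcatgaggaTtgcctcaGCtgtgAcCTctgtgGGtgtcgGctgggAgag
Lmo4, coding bases 88 to 177: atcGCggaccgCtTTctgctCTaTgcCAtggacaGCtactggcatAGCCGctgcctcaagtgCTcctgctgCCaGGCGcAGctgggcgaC
Against Lmo1, 10 bases differ in Lmo3, 21 in Lmo2 and 28 in Lmo4. The longest run that Lmo1 and Lmo3 have in common is 20 nt, and no 50-nt word of coding sequence is shared by any LMO pair. The same holds for Ldb1 with Ldb2 (73.0% identical) and Lhx2 with Lhx9 (73.6%), so an exactly matching coding read of 50 nt would belong to a single member of each family.

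Lmo4 encodes a cofactor of broad expression in the embryonic forebrain, and it had the highest LMO signal. The authors' deposited table gives it a mean of 96.1 in control and of 74.6 in Meis2-CKO, or 77.6% of control (log2 fold change -0.35). The gene lies on chromosome 3 (144188530 to 144205220, GRCm38; ENSMUSG00000028266). Its unadjusted p of 0.0028 was the smallest of the 9 and ranked 163 among the 16913 genes of the authors' deposited table, but the adjusted p was 0.290 and it was not called. Among genes of at least 300 nt of exon whose higher mean lay from 20 to 100, 29 of 4421 were called (0.656%). The smallest called difference there was 0.51 on the log2 scale (1.42-fold), and 95% of the genes of that range were within 0.25 of 0. The Lmo4 difference was thus outside the central range of genes of like level and short of the smallest one called.

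Lmo3 encodes a LIM-only cofactor of neurons. The authors' deposited table gives it 58.1 in control, 54.6 in Meis2-CKO and a log2 fold change of -0.08 (unadjusted p = 0.580). It lies on chromosome 6 (138362918 to 138581968, GRCm38). The Meis2-CKO mean was 94.1% of control, close to the bulk of genes of that level, whose median absolute log2 fold change was 0.06.

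Lmo1 is the close relative of Lmo3, and its mean lay the other way. Its deposited means in the authors' deposited table were 31.5 (control) and 36.6 (Meis2-CKO), a log2 fold change of 0.23 with an unadjusted p of 0.188. It lies on chromosome 7 (109138572 to 109175207, GRCm38). That difference was inside the 0.25 that held 95% of the genes of this level. Whether Lmo1 and Lmo3 differ in their response was not tested.

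Lmo2 encodes the LIM-only cofactor known from blood and endothelial cells, where it works with Tal1, Gata factors and Ldb1. The authors' deposited table lists it at 10.3 in control and at 7.18 in Meis2-CKO, or 70.0% of control (log2 fold change -0.49, unadjusted p = 0.150). Among genes of at least 300 nt whose higher mean lay from 5 to 20, 0.445% were called, the smallest at 2.52-fold, and 95% were within 0.38 of 0 on the log2 scale. Endothelial markers had nearly equal sums. The 9 markers came to 56.2 in control and 56.1 in Meis2-CKO, 4 with a log2 fold change above 0 and 5 below it. None was at 0, and Cldn5 was at 21.7 in both genotypes of the authors' deposited table. Esam (7.39 and 6.93) and Pecam1 (6.53 and 7.51) were the next highest by control mean. The authors' deposited table has Tal1 at 0.718 and 0.713, and Gata1 was not listed. Lmo2 lies on chromosome 2 (103957986 to 103981878, GRCm38), 11.9 Mb from Meis2 on the same chromosome. The part of blood and endothelial cells, and of that position, in the Lmo2 value was not tested.

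**Figure D2:**
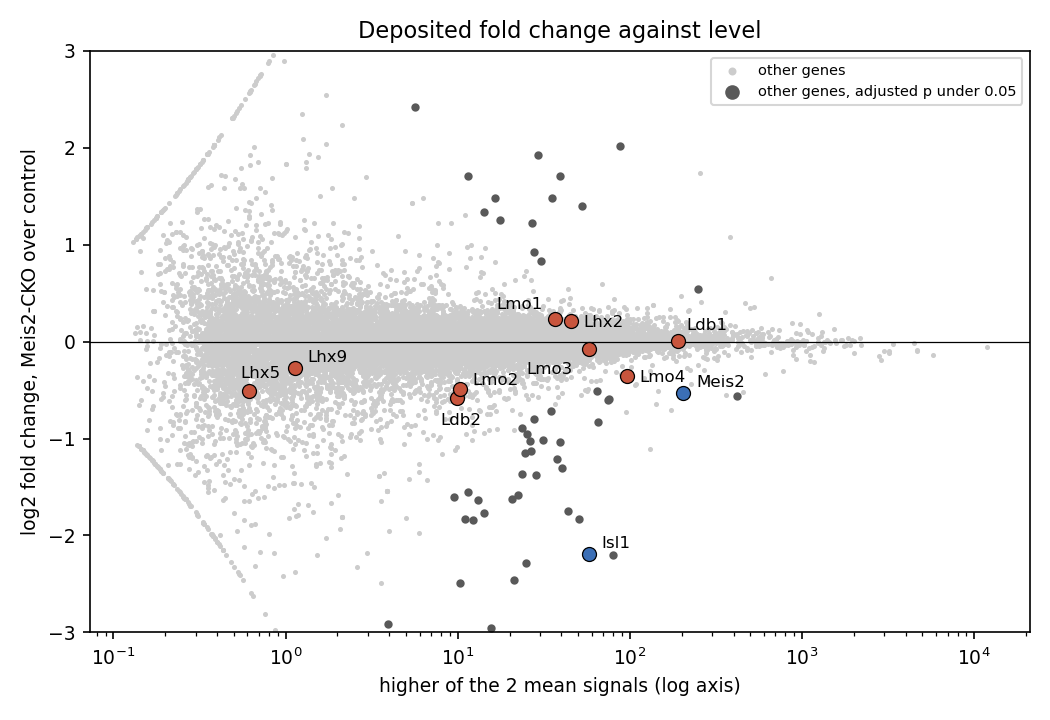
Deposited log2 fold change (Meis2-CKO over control) against the higher of the genotype means (log axis) for 16805 genes, leaving out 108 genes below a signal of 0.1 or beyond 3 on the log2 scale. Red points are the 9 genes and blue points Isl1 and Meis2; dark grey points passed an adjusted p of 0.05. Lmo4, Lmo2 and Ldb2 lie at the lower edge of the grey cloud, and Ldb1 lies at 0.

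Ldb1 encodes the main LIM-binding cofactor, which bridges LIM-homeodomain and LMO proteins. It had the highest signal of the 9, and both genotypes had a mean of 191 by the authors' deposited table (log2 fold change 0.01, unadjusted p = 0.906). Its Meis2-CKO mean was 99.8% of its control mean, and the sign of its fold change turned with the scaling. The gene lies on chromosome 19 (46031570 to 46045214, GRCm38). Pprc1 overlaps it on the opposite strand (21.2 and 22.2 in the authors' deposited table), and no source says whether the counting used strand.

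Ldb2 encodes the paralogous cofactor, and its signal was far lower. The authors' deposited table lists it at 9.90 in control and at 6.53 in Meis2-CKO (log2 fold change -0.58, unadjusted p = 0.103), the lowest log2 fold change of the 9. Its Meis2-CKO mean was 66.0% of control, again beyond the 0.38 that held 95% of genes of its level and short of the smallest called fold. It lies on chromosome 5 (44472132 to 44799680, GRCm38). In control Ldb2 made up 4.92% of the summed LDB signal, and in Meis2-CKO 3.31%. The LDB sum was 201 in control and 197 in Meis2-CKO, so it followed Ldb1.

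The SSBP genes, whose proteins bind and stabilise LDB, were close to level as well. By the authors' deposited table, Ssbp3 stood at 92.7 (control) and 92.3 (Meis2-CKO), Ssbp2 at 51.5 and 47.5, and Ssbp4 at 35.7 and 37.3. They were picked out after their values were seen. None passed, and their log2 fold changes lay between -0.10 and 0.08.

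Lhx2 encodes a LIM-homeodomain factor of forebrain progenitors. The authors' deposited table lists it at 39.8 in control and at 45.6 in Meis2-CKO, or 115% of control (log2 fold change 0.21, unadjusted p = 0.178). It lies on chromosome 2 (38339281 to 38369733, GRCm38), 77.5 Mb from Meis2. Radial glia markers had higher means alongside it. All 8 had a log2 fold change above 0, from 0.14 to 0.29, none passed, and their sum was 1618 in control and 1831 in Meis2-CKO. Fabp7 (860 and 968), Vim (372 and 410) and Sox2 (121 and 142) stood highest among them in the authors' deposited table. The pallial markers given above, 8 of 9 of which had a log2 fold change above 0, also had a higher sum. Over all genes, 9021 of 16913 had a log2 fold change above 0. The part of radial glia and of pallial cells in the Lhx2 value was not tested.

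Lhx5 and Lhx9 are LIM-homeobox genes best known from other forebrain territories, Lhx5 from the diencephalon and Cajal-Retzius cells and Lhx9 from the diencephalon and pallium. The authors' deposited table lists Lhx9 at 1.13 in control and at 0.905 in Meis2-CKO (log2 fold change -0.27, unadjusted p = 0.762). It lists Lhx5 at 0.613 and 0.39 (log2 fold change -0.51) with an unadjusted p of 0.662 in the authors' deposited table. By control mean, Lhx9 ranked 13364 and Lhx5 14749 of 16913. No gene of 300 nt or more with both means under 1 was called in the authors' deposited table (0 of 2819, of which 4 had an unadjusted p below 0.05). At signals from 1 to 5 only 3 of 3649 were called, the smallest at 7.53-fold. Differences of the size seen for Lhx5 and Lhx9 were thus not called for any such gene, but no detection limit was computed.

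Among markers of the territories of Lhx5 and Lhx9, the thalamic and diencephalic ones were low, while the pallial ones given above were higher. The 4 listed thalamic and diencephalic markers had a sum of 7.43 in control and 8.16 in Meis2-CKO, most of it Tcf7l2 (5.20 and 6.01 in the authors' deposited table). Barhl2 (0.893 and 1.05) and Rora (0.788 and 0.603) followed by control mean, and Foxb1 and Irx3 were not listed. The 6 Cajal-Retzius markers summed to 43.7 and 38.6, and Reln (25.2 and 19.4), Calb2 (7.55 and 6.55) and Cdkn1a (5.48 and 5.86) stood highest in the authors' deposited table. Reln is also made by other neurons. The part of such cells in the Lhx5 and Lhx9 values was not tested.

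Isl1 fell. The authors' deposited table gives means of 57.9 (control) and 12.5 (Meis2-CKO), or 21.6% of control, with a log2 fold change of -2.19 and an adjusted p of 7.8e-26. Of 9 other LIM-homeobox genes, counting Isl1, 4 were listed, and Isl1 was the only call. Lhx6 (17.2 and 19.2), Lhx8 (3.08 and 3.72) and Lhx1 (0.555 and 0.305) did not pass in the authors' deposited table. Isl2, Lhx3, Lhx4, Lmx1a and Lmx1b were not listed. The medial eminence markers Sst (78.2 and 79.0), Lhx6 and Nkx2-1 (5.16 and 5.54) had similar means in both genotypes of the authors' deposited table, and no member of that list was called.

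Among the summed transcripts of LIM proteins and their cofactors, the genotype means differed most through Isl1, whose call was known before these sums were made. The 7 listed LIM-homeobox genes had a sum of 120 in control and 82.6 in Meis2-CKO. Isl1 made up 48.1% of that sum in control and 15.1% in Meis2-CKO, while Lhx2 made up 33.1% and 55.2%. Without Isl1 the sum was 62.3 in control and 70.1 in Meis2-CKO. The LMO sum was 196 and 173, and Lmo4 made up 49.1% and 43.1% of it. The ratio of the LIM-homeobox sum to the LDB sum was 0.598 in control and 0.419 in Meis2-CKO, and that of the LMO sum to the LDB sum was 0.975 and 0.877. The signal of Lmo4 was 1.66 times that of Isl1 in control and 5.97 times in Meis2-CKO. These sums and ratios come from a single mean per genotype, carry no error and were not tested. They describe RNA over the whole dissected tissue, not the proteins within a cell.

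**Figure D3:**
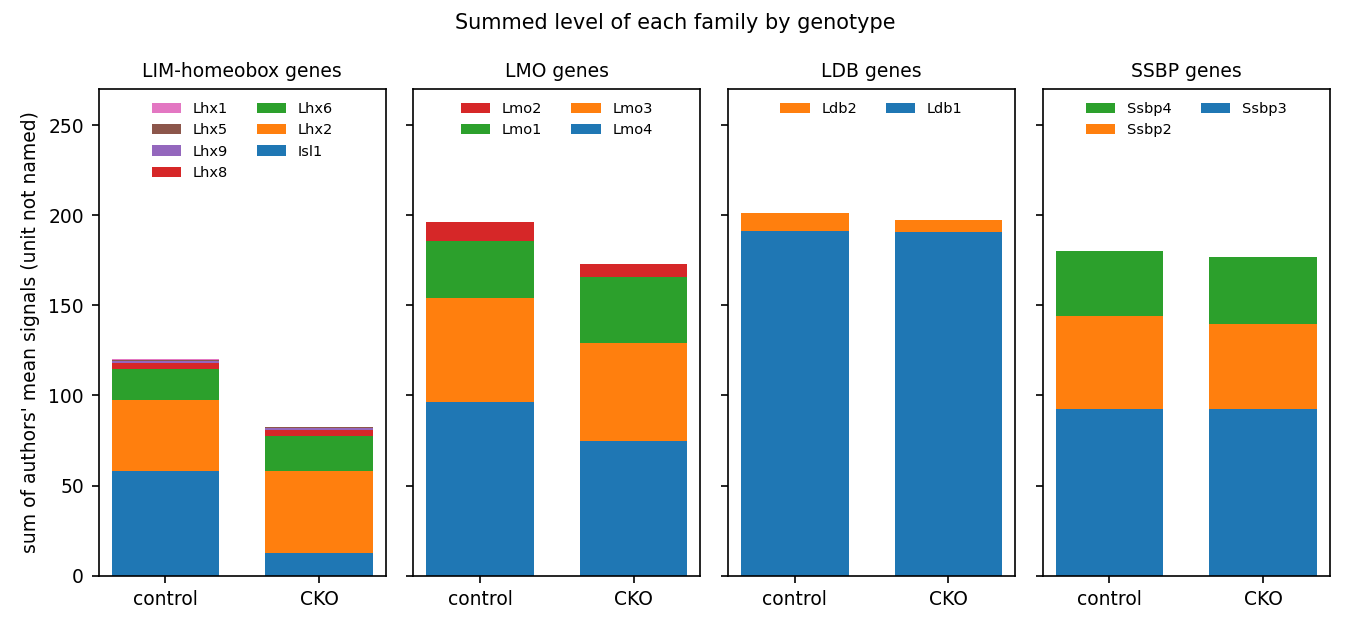
Summed mean signal of the LIM-homeobox, LMO, LDB and SSBP genes in control and Meis2-CKO (linear axis from 0), with each gene's share as a coloured segment; no error was computed. The LIM-homeobox bar goes from 120 to 82.6, mostly through the Isl1 segment, while the LDB bars (201 and 197) are nearly level.

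The wider set of LDB1 complex partners gave no call. Of 22 genes 19 were listed. The log2 fold change was above 0 for 15 and below it for 4, and its median was 0.12 beside 0.01 over all genes. Neurog2, a proneural factor that can act with Lmo4 and Ldb1, is listed in the authors' deposited table at 19.2 for control and 27.4 for Meis2-CKO (log2 fold change 0.52, unadjusted p = 0.0155). Tcf4, a partner of proneural factors, is listed in the authors' deposited table at 95.5 and 111 (log2 fold change 0.23, unadjusted p = 0.0373). Bex2, which can join Lmo2 complexes, had the highest control mean of the list (154 and 150). Only Neurog2 and Tcf4 of this list had an unadjusted p under 0.05, and neither passed after adjustment. Neurog2 is a pallial progenitor gene too, and the part of pallial cells and radial glia in its value was not tested.

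Other proteins with LIM domains, mainly of the cytoskeleton and adhesion sites, served as a contrast. Of 33 genes 30 were listed. The log2 fold change was above 0 for 16 and below it for 14, and its median was 0.03. None was called, nor did any reach an unadjusted p below 0.05. The smallest p of the list belonged to the kinase gene Limk2 (45.7 in control, 38.6 in Meis2-CKO) and to Crip2 (53.2 and 45.7), by the authors' deposited table. Csrp2 had its highest control mean (78.6 and 81.2). Whether the 9 genes differ as a group from this list was not tested.

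**Figure D4:**
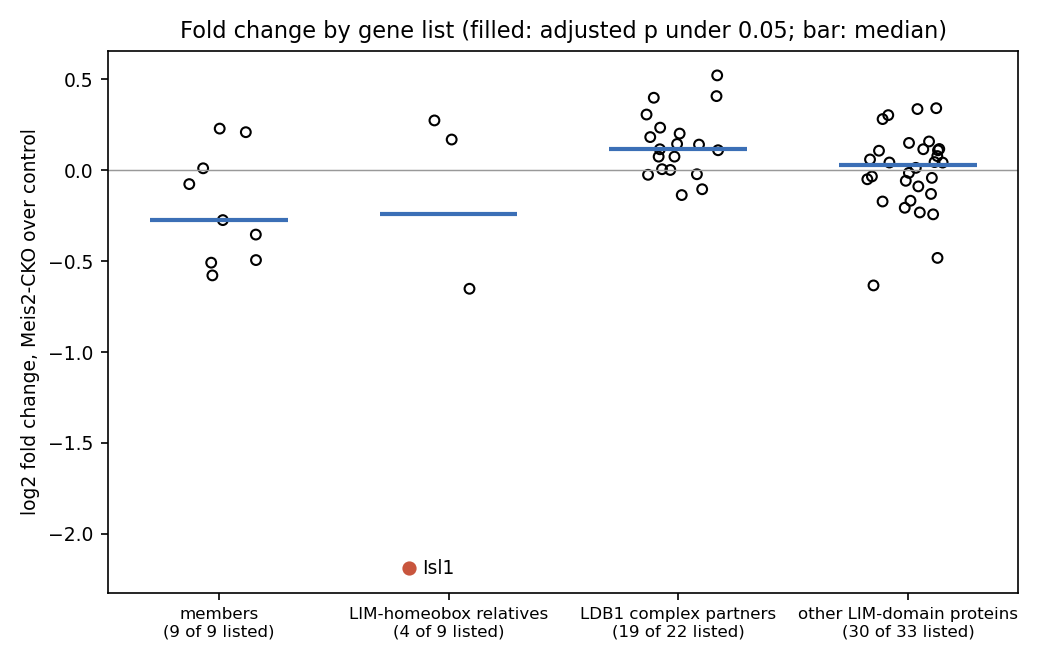
Deposited log2 fold change (Meis2-CKO over control) of each listed gene in the 9 members and 3 related lists; filled points passed an adjusted p of 0.05 and bars are medians (-0.27, -0.24, 0.12 and 0.03 from left to right). Isl1, at -2.19, is the only filled point.

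Promoter windows were searched for letters that Meis and homeodomain proteins are known to bind, since Meis2 was the targeted gene. RefSeq windows of 300 bases on GRCm38.p6, from 250 before to 50 after a start, were given for 6 members (12 windows: Lmo1, Lmo3, Lmo4, Ldb1, Lhx2 and Lhx9) and for Isl1. There was no entry for Lmo2, Ldb2 and Lhx5. On either strand, TGACAG, the core that Meis proteins recognise, was found in 2 of the 12 windows, beside 19.2% of all 32851 windows. TAATTA, a homeodomain core, was found at a single place in Lmo1, inside both of its overlapping windows, beside 5.29% of all windows. The matches are shown with 10 flanking bases, 5′ to 3′ on the gene's strand, with the motif in capitals.
Lmo4, minus strand, chr3:144202318-144202343: ctcggagtttTGACAGtccccgagct
Lhx9, minus strand, chr1:138842554-138842579: agaggaggtaTGACAGgtctttgttg
Lmo1, minus strand, chr7:109175378-109175403: tgaattgattTAATTAacaggggagt
The Lmo4 match begins at position -1 of 1 of its 3 annotated starts, and the Lhx9 match at position -125. The window of Isl1, the LIM-homeobox gene that fell, held neither motif. These are matches of letters and no evidence of binding, and a window without a match says nothing about sites elsewhere.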

How the data were processed

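RNA from LGE was sequenced in 8 samples, 4 per genotype. The submitters' processing notes name FastQC 0.11.5, HISAT2 2.1.0 and StringTie 1.3.1, with the builds GRCm38.p2 and mm10, and give no roles. The deposited table gives, per the file headers, the authors' mean expression signal per genotype, the authors' log2 fold change and the authors' p-value with its adjusted form. The adjusted value equalled a Benjamini-Hochberg adjustment over all 16913 genes, within 1e-06. For the tool behind the test, the sources used here give no name. A further 8 columns of values per library have names that match no sample label and were not used, so no fit over samples, no genes of like pattern and no spread are given.

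Calls are the authors' at an adjusted p under 0.05. Genes were taken by symbol. Named genes were the 9 members, Isl1 and Meis2. From each related list came the called genes or else the 2 with the smallest p and the 2 with the highest control mean, and from each marker list the 3 with the highest control mean. The marker lists for erythroid cells (4 of 6 listed, Hbb-bt 298 and 309, Alas2 5.22 and 5.34, Hba-a2 15.2 and 19.4) and for microglia and macrophages (5 of 5 listed, sums 35.8 and 35.3, Tyrobp 11.9 and 10.8, P2ry12 10.8 and 10.7, Csf1r 5.53 and 5.54) held no call; values are control and Meis2-CKO means. The SSBP genes, Tal1, Lhx1, Lhx6 and Lhx8, the other LGE identity genes, the sex-linked genes and the overlapping genes were named outside this rule, after their values were seen. The members and lists were chosen with earlier results of these data known. Positions, exon lengths and coding sequences came from GENCODE M21 (GRCm38), matched by Ensembl ID for 16861 genes. Coding sequences were aligned globally with Biopython 1.88. Python 3.11.15, numpy 2.4.6, pandas 2.3.3 and matplotlib 3.10.9 were used, and the adjustment was tested on simulated data.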

Additional observations from a re-analysis of the deposited data

How the results depend on the processing

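No member was called, and Isl1 was, under each of 9 alternatives: adjustment among genes with a mean of at least 1 or 5 or, added after the data were seen, of 300 nt or more, Benjamini-Yekutieli adjustment, a fold change of at least 1.5, an adjusted p under 0.1, log2 ratios of the means with a pseudocount of 1 or 0.1, and centring on the median. The pseudocounts and centring leave the calls as they were, and the 1.5-fold and Benjamini-Yekutieli settings can only remove calls. For those settings, the absence of member calls was fixed in advance. The adjusted p under 0.1 could not add a member either, since the smallest deposited adjusted p among them was 0.290 (Lmo4). Only adjustment among fewer genes could have added a member, and that member could only be Lmo4. Every other member had a deposited unadjusted p of 0.103 or more, and adjustment cannot lower it. The adjusted p of Lmo4 ranged from 0.228 to 1.0 over the 9 alternatives. Of 78 values of members under the alternatives, 75 kept their direction (Lhx5 had no value at a mean of at least 1 or 5, nor Lhx9 at 5). Only the pseudocounts and centring change the fold change, so under the other settings the direction could not turn. The values that turned were those of Ldb1, at -0.0022 with either pseudocount and at -0.0017 after centring. Its deposited value was 0.0111, and centring subtracted 0.0128. Over genes with a mean of at least 1, deposited fold changes lay a median of 0.0124 above the log2 ratio of means. The cause of that offset was not tested. In all, 132 genes were called over every gene, but 51 when only genes of 300 nt or more were adjusted. Meis2 was no longer called when 1.5-fold was required. A limma fit on single libraries, leaving out each sample and the replicate block were not run. No paired analysis was possible because the library columns name no sample. The unknown depth limits what can be said of Lhx5 and Lhx9.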

Other observations

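Apart from Pprc1, given with Ldb1, the listed transcripts annotated within or across the members had means below 3. Gm43445, annotated inside an intron of Lmo4 on the same strand, is listed in the authors' deposited table at 1.33 for control and 0.84 for Meis2-CKO (not called, log2 fold change -0.58). A830011K09Rik, antisense to Lmo3, stood at 2.20 and 2.42, and Gm13584 and Gm27197, antisense to Lhx2, at 1.20 and 1.05 and at 0.953 and 0.753. Gm27199, antisense to Lhx5, stood at 0.13 and 0.225, while Lhx5 itself stood at 0.613 and 0.39. Without a stated strand, the reads of the antisense pairs cannot be told apart. For Gm43445 and Lmo4, which share a strand, knowing the strand would not separate the reads.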
